A study of Caenorhabditis elegans with 24 samples.

Results

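The cytochrome P450 genes of Caenorhabditis elegans were taken as all protein-coding genes whose symbol starts with cyp-, and 74 genes met that rule, of 19901 protein-coding genes and 46904 gene identifiers in each table. They fall into 15 families and 25 subfamilies, the family being the number in the symbol and the subfamily the letter after it. The animals were worms of strain CF1041, which carries daf-2(e1370), a reduction-of-function allele of the insulin/IGF-1 receptor gene that makes worms long-lived, and of N2, the wild type. Each strain was collected on adult days 1, 4, 7 and 11, with 3 whole-body libraries per strain and day, 24 in all. Both strains had been synchronised by bleaching, raised on plates seeded with Escherichia coli OP50, and given 5-fluoro-2'-deoxyuridine (FUDR) from the last larval stage, which blocks DNA synthesis and keeps progeny from hatching. The drug was therefore present in every group, and e1370 is a point mutation, so gene counts do not check the genotype labels. Whether a group's 3 libraries stem from different cultures is not given in the labels. A p-value here therefore reflects the variation among the libraries alone, and that variation may be technical.

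Cytochrome P450 enzymes are heme proteins that insert 1 atom of oxygen into a substrate, taking electrons from a reductase, which in the worm's endoplasmic reticulum is the product of emb-8. Substrates include foreign compounds, sterols and fatty acids, and the worm enzymes make eicosanoids from polyunsaturated fatty acids. Several cyp genes, the cyp-35 family among them, are expressed in the intestine and induced by xenobiotics. Worms cannot make heme and take it from their food.

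The libraries held 20660999 to 32655703 expected counts, and the 74 P450 genes together took 20080 to 41659 of them, a share of 0.0756% to 0.159%. Ribosomal RNA genes took 3.90% to 14.6% of the counts. The libraries numbered 3 had 7.92% to 14.6%, those numbered 1 had 5.59% to 8.83% and those numbered 2 had 3.90% to 9.62%. The number-3 libraries also stood apart in some P450 genes, since 7 members (cyp-13A1, cyp-13A10, cyp-13B2, cyp-29A2, cyp-29A3, cyp-33D3 and cyp-35A5) were highest in the number-3 library in all 8 groups. Because of this, counts of genes are given below with the libraries numbered 3 left out as well. This omission raised the calls over all genes, while leaving out number 1 or 2 lowered them. At N2 day 4 all genes had 1280 rises and 1751 falls without number 3. They had 24 and 93 without number 1, 76 and 388 without number 2, and 503 and 1016 with all 24 libraries. Calls kept without number 3 therefore do not show that they hold without number 1 or 2. Levels are in CPM, the expected count scaled to a common library total. Tests are edgeR's quasi-likelihood test over all 24 libraries with p-values adjusted by the Benjamini-Hochberg method over 16698 genes, and a gene passed at an adjusted p under 0.05. Of the 74 members, 70 had enough counts to be tested. The 4 left out were cyp-25A6, cyp-33C11, cyp-33C12 and cyp-35B3. In 9 members (cyp-13A11, cyp-13A12, cyp-25A1, cyp-25A2, cyp-25A3, cyp-25A4, cyp-25A6, cyp-33C3 and cyp-33C4) the expected counts were not whole, so reads were shared with a similar sequence and their split is uncertain. A further source of uncertainty is that 19 members overlap another annotated gene, 17 of them on the opposite strand.

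Levels of the P450 genes differed widely. Per kilobase of exon, cyp-14A5 had the highest mean over the 24 libraries, at 157 CPM per kilobase. At day 1 it was below cyp-31A2 in both strains, with 43.4 CPM per kilobase against 79.6 in daf-2 and 47.7 against 82.9 in N2, and at the later ages its mean was the highest of all members. By the mean over all libraries, the next were cyp-31A2 at 82.1, cyp-31A3 at 38.5, cyp-31A5 at 32.4 and cyp-44A1 at 30.6 CPM per kilobase. The ranges over libraries of cyp-31A3, cyp-31A5 and cyp-44A1 overlapped. The genes cyp-31A2 and cyp-31A3 act in making lipids of the eggshell, and cyp-44A1 encodes a mitochondrial P450. After these came cyp-35A2 at 26.7, cyp-25A2 at 23.9, cyp-34A9 at 20.5 and cyp-35C1 at 15.4 CPM per kilobase. Of the 74 members, 22 averaged under 1 CPM and 25 averaged over 10 CPM, and the 5 with the most counts held 50.0% of all P450 counts.

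**Figure D1:**
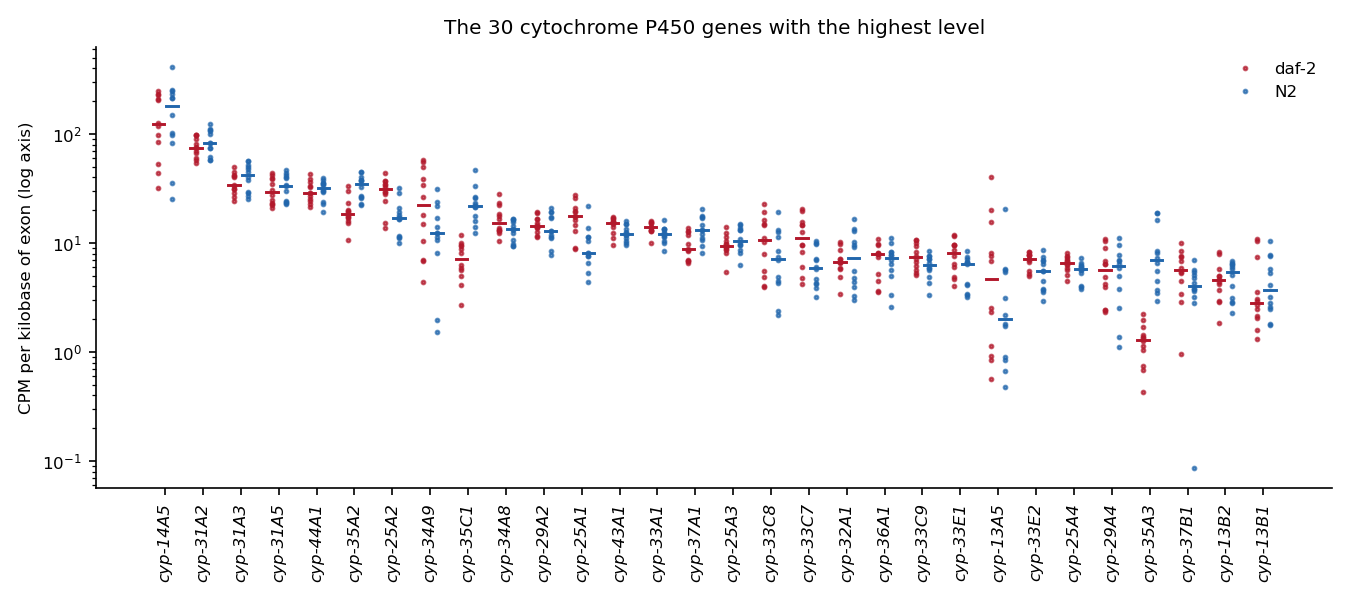
Level of the 30 P450 genes with the highest mean, in CPM per kilobase of exon on a log axis. Each point is 1 library, circles in red are the 12 daf-2 libraries, those in blue are the 12 N2 libraries, and short lines are medians; cyp-14A5 has the highest mean, and cyp-35C1 and cyp-35A3 show N2 points above most daf-2 points.

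The summed P450 level was higher at day 7 than at day 1 in both strains. In daf-2 the sum was 794.6 ± 48.0 CPM at day 1, 995.3 ± 50.6 at day 4, 1216 ± 51.0 at day 7 and 1171 ± 107 at day 11 (SD, n = 3 each). In N2 it was 837.4 ± 90.7 CPM at day 1, 994.5 ± 68.3 at day 4, 1389.7 ± 176.3 at day 7 and 1131 ± 72.0 at day 11 (SD, n = 3 each). Most of the rise to day 7 lay in the 5 cyp-14A genes, chiefly cyp-14A5. Their sum went from 80.2 ± 10.5 CPM at day 1 to 355 ± 26.9 CPM at day 7 in daf-2. In N2 it went from 88.6 ± 50.0 CPM to 475 ± 154 CPM (SD, n = 3 each). No test was run on the sums. In bulk samples, fewer cells of a type and less RNA per cell cannot be told apart, and this holds for every level given here.

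By day 11 the family had moved in both directions in each strain. In daf-2 worms, 23 members rose and 9 fell between day 1 and day 11, of 70 tested, against 22.3% of all genes tested that rose and 18% that fell. In N2 worms 19 rose and 13 fell, against a background of 22.5% and 19.2%. The members' shares were 32.9% and 12.9% in daf-2 and 27.1% and 18.6% in N2, so in N2 they lay close to those of all genes. The median log2 fold change of the members was 0.34 in daf-2 and 0.39 in N2, beside 0.09 and 0.10 over all genes. With the replicate number as a block, 28 rose and 15 fell in daf-2, beside 30.8% and 26% of all genes. Without the libraries numbered 3, 21 rose and 13 fell in daf-2, beside 28.1% and 25.8% of all genes, and 25 rose and 16 fell in N2, beside 27.9% and 26.4%. These were partly other genes. Of the calls in the main test, 15 of 23 rises and 8 of 9 falls were kept in daf-2. In N2, 19 of 19 rises and 12 of 13 falls were kept. Scaling on library size alone moved the median log2 change of all genes at day 11 up by 0.20 in daf-2 and by 0.23 in N2, and the values given here are from the main scaling.

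**Figure D2:**
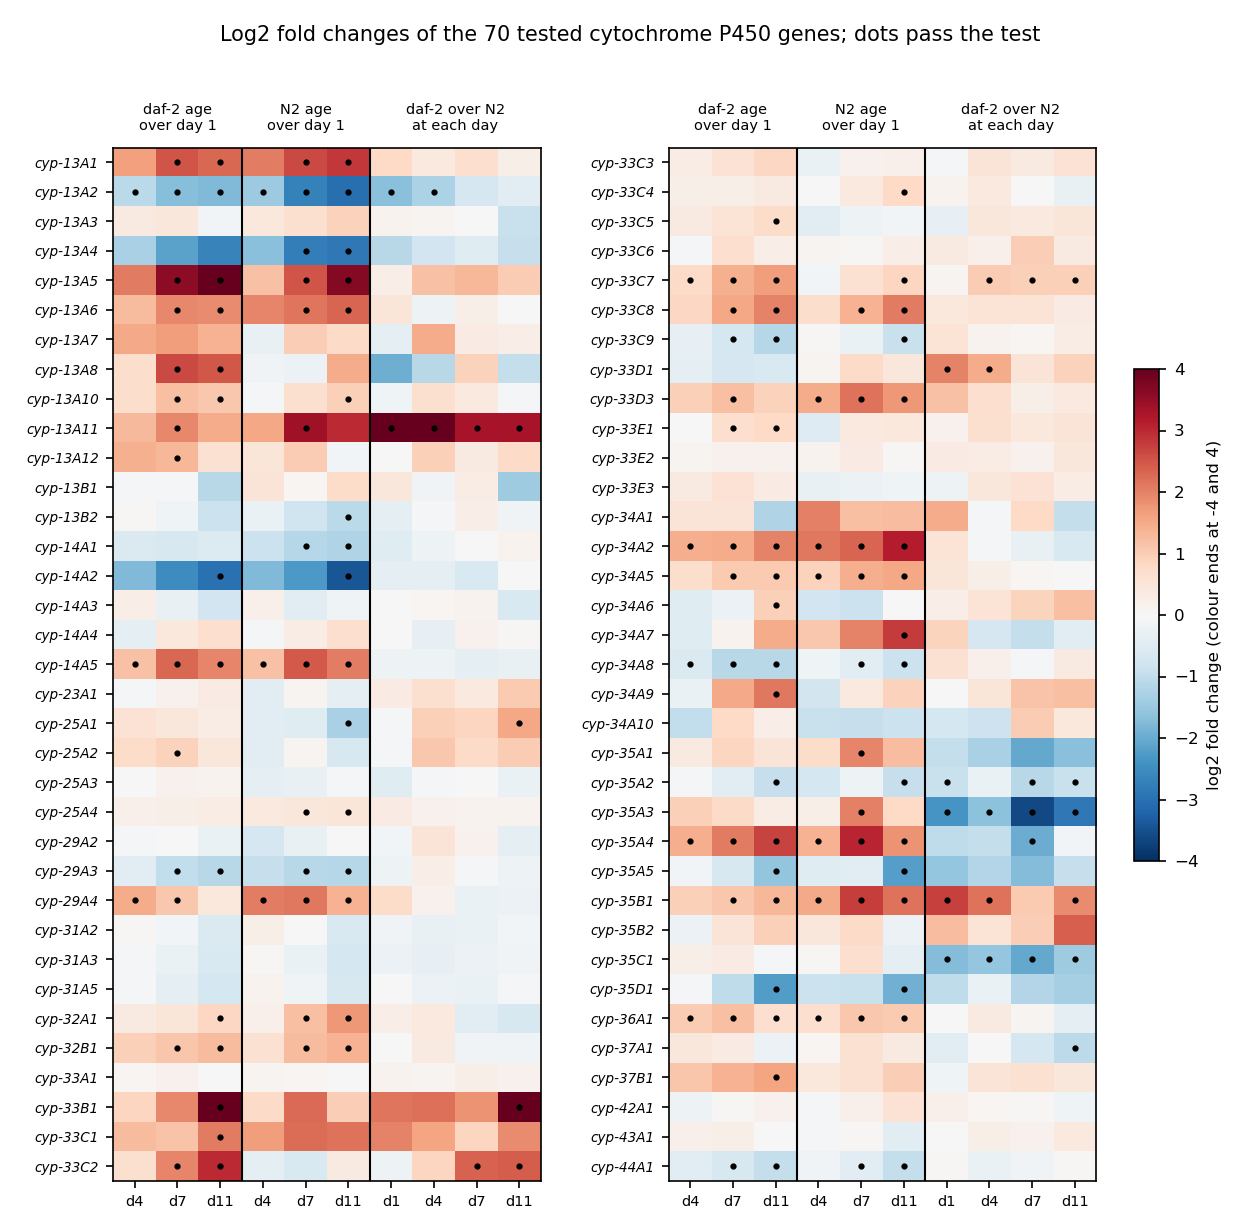
Log2 fold changes of the 70 tested P450 genes in rows, split into 2 panels. Columns are daf-2 at days 4, 7 and 11 over day 1, N2 at the same days over day 1, and daf-2 over N2 at days 1, 4, 7 and 11, with red higher and blue lower; a dot marks a change that passed the test. At day 11 there are 23 rises and 9 falls in daf-2 and 19 rises and 13 falls in N2.

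The most abundant riser was cyp-14A5. In daf-2 it had 325, 186 and 392 CPM in the 3 libraries of day 11, against 50.1, 69.2 and 83.8 CPM at day 1. N2 worms had 332, 332 and 399 CPM at day 11, against 39.9, 55.0 and 129 CPM at day 1. Every day 11 library was above every day 1 library of its strain. The log2 fold change of cyp-14A5 was 1.95 ± 0.34 in daf-2 (SE; edgeR adjusted p = 0.000147) and 2.03 ± 0.34 in N2 (edgeR adjusted p = 8.3e-05). Its level had already passed the test at day 4 in both strains, and at day 7 it reached 367, 354 and 321 CPM in daf-2 and 367, 389.8 and 643 CPM in N2. With 3 libraries a group, the day 4 calls were the less stable ones: the adjusted p in daf-2 was 0.0298 and became 0.132 without daf-2 day 4 library 2, and in N2 it was 0.0293 and became 0.169 without N2 day 1 library 1.

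Genes of the cyp-13A subfamily, 8 of which lie side by side on chromosome II at 9779181 to 9807569 (WBcel235), moved in both directions. Of 11 tested, 5 rose and 1 fell by day 11 in daf-2, and 4 rose and 2 fell in N2. The steepest riser was cyp-13A5, with 26.0, 67.6 and 11.4 CPM in day 11 daf-2 worms, against 0.939, 1.4 and 1.88 CPM at day 1. In N2 worms the values were 9.61, 34 and 5.22 CPM at day 11, against 1.42, 1.11 and 0.796 CPM at day 1. Day 11 and day 1 did not overlap in either strain, but the day 11 libraries differed widely, and the number-3 library was the lowest of its group in 7 of 8 groups. The log2 fold change was 4.44 ± 0.94 in daf-2 (edgeR adjusted p = 0.000934) and 3.67 ± 0.93 in N2 (edgeR adjusted p = 0.0036).

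In the same run of genes, cyp-13A2 went the other way. It had 1.39, 1.56 and 1.57 CPM in day 11 daf-2 worms, against 5.70, 2.94 and 4.80 CPM at day 1, and 1.35, 2.11 and 2.36 CPM in day 11 N2 worms, against 11.5, 11.5 and 17.5 CPM at day 1. The groups did not overlap in either strain. It fell by 1.77 on the log2 scale in daf-2 (SE 0.33; edgeR adjusted p = 0.000268) and by 3.02 in N2 (SE 0.33; edgeR adjusted p = 6.3e-07), and the fall had passed the test at days 4 and 7 in both strains. The day 4 call in daf-2 was weak: its adjusted p of 0.0398 became 0.175 without daf-2 day 1 library 1. A further 3 genes of the subfamily, cyp-13A1, cyp-13A6 and cyp-13A10, also passed as risers at day 11 in both strains. Of these cyp-13A1 had 2.72, 2.49 and 5.68 CPM at day 11 in daf-2 against 0.201, 0.522 and 1.21 CPM at day 1, and 2.89, 1.90 and 4.08 CPM at day 11 in N2 against 0.337, 0.180 and 0.521 CPM at day 1. Its log2 fold change was 2.29 ± 0.62 in daf-2 (edgeR adjusted p = 0.00603) and 2.84 ± 0.66 in N2 (edgeR adjusted p = 0.00183), without overlap between the days. The calls for cyp-13A10 were lost without a single library: the adjusted p in daf-2 was 0.0262 and became 0.13 without daf-2 day 1 library 2, and in N2 it was 0.0474 and became 0.211 without N2 day 1 library 2. The call for cyp-13A6 in daf-2 was 0.0259 and became 0.126 without daf-2 day 11 library 3. The gene cyp-13A12, which is known for its role in the behavioural response to reoxygenation, had 1.05, 0.989 and 0.485 CPM in day 11 daf-2 worms and 0.268, 0.555 and 0.598 CPM at day 1, and it did not pass at day 11 in either strain.

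In the cyp-33C and cyp-34A subfamilies most calls were rises. Of 9 tested cyp-33C genes, 5 rose and 1 fell by day 11 in daf-2, and 3 rose and 1 fell in N2. The gene cyp-33C8 had 27.4, 37.8 and 32.4 CPM in day 11 daf-2 worms, against 6.70, 6.66 and 8.07 CPM at day 1, and 21.1, 31.9 and 21.9 CPM in day 11 N2 worms, against 4.01, 3.63 and 7.5 CPM at day 1. Its log2 fold changes were 1.99 ± 0.27 in daf-2 (edgeR adjusted p = 1.13e-05) and 2.09 ± 0.28 in N2 (edgeR adjusted p = 5.64e-06), with no overlap between days. The faller was cyp-33C9, with 8.51, 9.22 and 8.22 CPM in day 11 daf-2 worms against 15.3, 17.3 and 17.3 CPM at day 1. The N2 libraries had 7.95, 7.02 and 5.41 CPM at day 11 against 10.7, 9.45 and 12.4 CPM at day 1. It fell by 1.15 in daf-2 (SE 0.19; edgeR adjusted p = 0.000101) and by 0.90 in N2 (SE 0.19; edgeR adjusted p = 0.00087), again with no overlap.

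Of 8 tested cyp-34A genes, 4 rose and 1 fell by day 11 in daf-2, and 3 rose and 1 fell in N2. The clearest riser was cyp-34A2. It had 12.4, 7.30 and 10.8 CPM in day 11 daf-2 worms against 1.91, 2.45 and 2.35 CPM at day 1, and 15.2, 14.7 and 14.9 CPM in day 11 N2 worms against 1.20, 1.08 and 2.02 CPM at day 1. The log2 fold change was 1.98 ± 0.29 in daf-2 (edgeR adjusted p = 2.45e-05) and 3.15 ± 0.31 in N2 (edgeR adjusted p = 1.38e-07), and no library of one day reached the range of the other. The difference between the strains in this change, -1.17 ± 0.41, did not pass (edgeR adjusted p = 0.336). The abundant cyp-34A8 fell instead, with 20.9, 19.7 and 21.9 CPM in day 11 daf-2 worms against 35.3, 37.1 and 45.1 CPM at day 1, and with 14.8, 15.6 and 16.8 CPM in day 11 N2 worms against 25, 25.6 and 21.5 CPM at day 1. Its falls were 1.11 in daf-2 (SE 0.16; edgeR adjusted p = 2.44e-05) and 0.84 in N2 (SE 0.16; edgeR adjusted p = 0.000351), and the days did not overlap.

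The gene cyp-34A9 had the highest mean of its subfamily over the 24 libraries, though at day 1 cyp-34A8 was above it in both strains. In daf-2 it had 94.5, 99.3 and 85.9 CPM at day 11 against 31, 7.51 and 17.7 CPM at day 1, a log2 fold change of 2.11 ± 0.65 (edgeR adjusted p = 0.0134) that became 0.0692 in adjusted p without daf-2 day 1 library 2. N2 worms had 40.8, 24.2 and 53.2 CPM at day 11 and 21.0, 3.38 and 29.2 CPM at day 1, which overlapped and did not pass (log2 fold change 0.92 ± 0.63, edgeR adjusted p = 0.25). The 2 changes were not shown to differ, since the strain-by-age difference of 1.19 ± 0.88 had an edgeR adjusted p of 0.945.

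**Figure D3:**
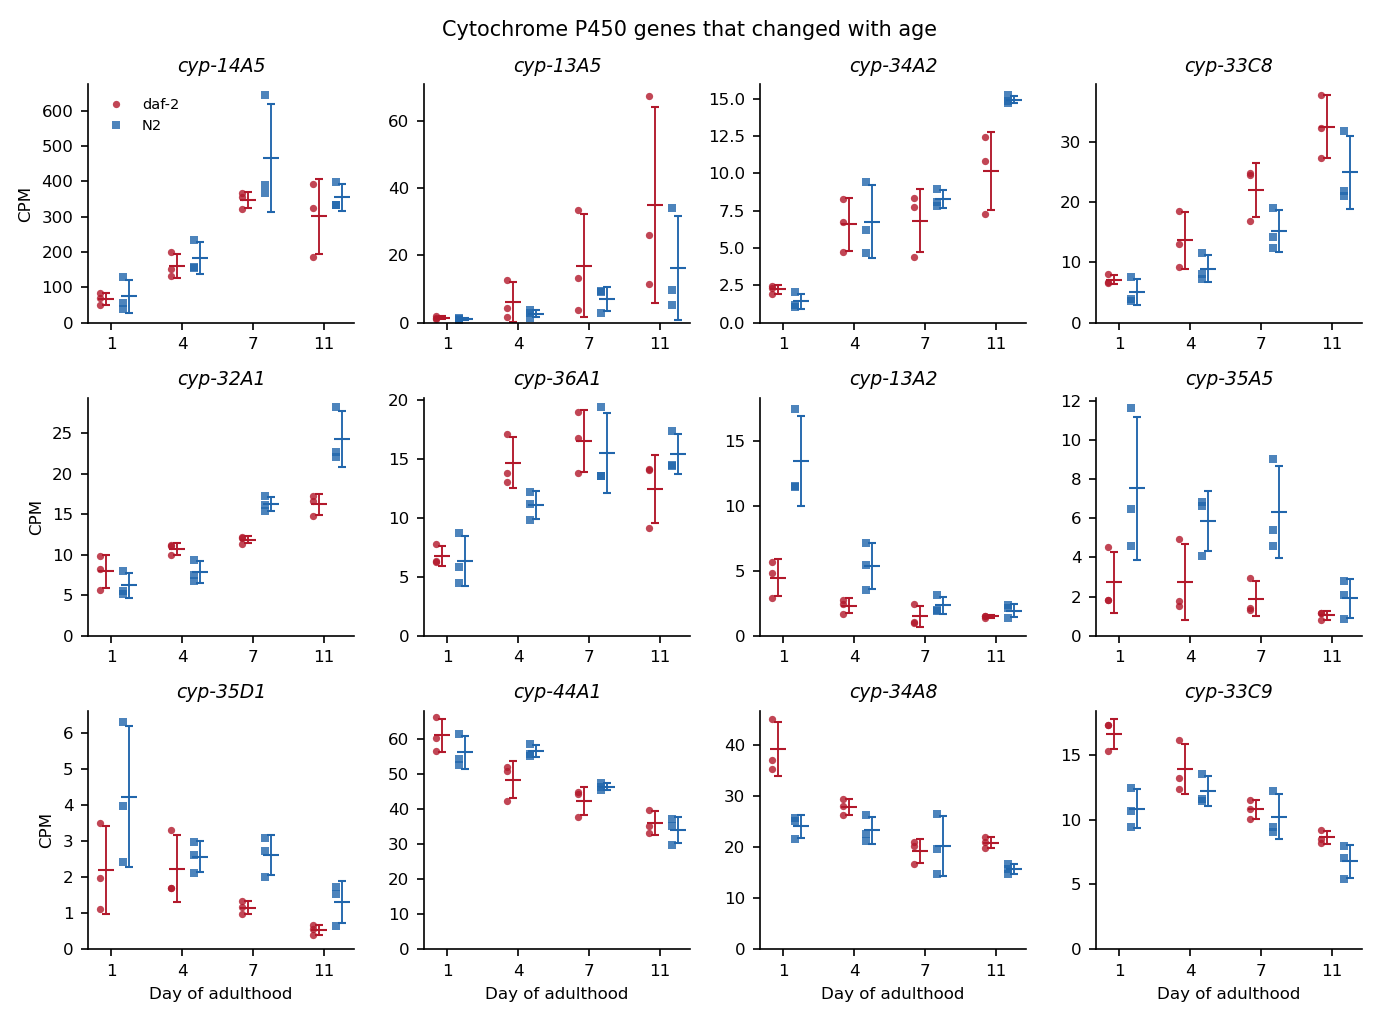
CPM of 12 P450 genes on adult days 1, 4, 7 and 11, with daf-2 in red circles left of N2 in blue squares. Points are libraries, and the dash with its bar is the mean with the SD of 3 libraries; cyp-14A5, cyp-13A5, cyp-34A2, cyp-33C8, cyp-32A1 and cyp-36A1 were higher at day 11 than at day 1 in both strains, and cyp-13A2, cyp-35A5, cyp-35D1, cyp-44A1, cyp-34A8 and cyp-33C9 were lower.

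Single-gene subfamilies also changed. The gene cyp-32A1 had 16.6, 17.3 and 14.8 CPM in day 11 daf-2 worms against 8.25, 5.71 and 9.85 CPM at day 1, and 28.2, 22.6 and 22 CPM in day 11 N2 worms against 5.51, 5.1 and 8.02 CPM at day 1. The days did not overlap in either strain. Its log2 fold change was 0.83 ± 0.20 in daf-2 (edgeR adjusted p = 0.00215) and 1.74 ± 0.20 in N2 (edgeR adjusted p = 9.8e-07), and the difference between these, -0.91 ± 0.28, had an edgeR adjusted p of 0.241. The gene cyp-36A1, known to act downstream of hypoxia signalling, rose at days 4, 7 and 11 in both strains. It had 19, 13.8 and 16.8 CPM in day 7 daf-2 worms against 6.23, 6.40 and 7.79 CPM at day 1, a log2 fold change of 1.19 ± 0.21 (edgeR adjusted p = 0.000277). In N2 it had 13.6, 13.6 and 19.5 CPM at day 7 against 5.88, 4.53 and 8.70 CPM at day 1, a log2 fold change of 1.09 ± 0.21 (edgeR adjusted p = 0.000591), and neither strain's days overlapped. At day 11 its log2 fold change was 0.67 ± 0.21 in daf-2 (edgeR adjusted p = 0.0136, and 0.0612 without daf-2 day 11 library 3) and 1.05 ± 0.21 in N2 (edgeR adjusted p = 0.000411), with mean levels of 12.5 CPM in daf-2 and 15.5 CPM in N2. The N2 mean at day 7 was also 15.5 CPM. The mitochondrial gene cyp-44A1 fell by 0.96 in daf-2 (SE 0.14; edgeR adjusted p = 2.55e-05) and by 0.96 in N2 (SE 0.14; edgeR adjusted p = 2.11e-05). It had 39.8, 33 and 35.1 CPM in day 11 daf-2 worms against 56.6, 66.1 and 60.0 CPM at day 1, and 37, 29.7 and 35.1 CPM in day 11 N2 worms against 54.3, 61.3 and 52.6 CPM at day 1, without overlap. It overlaps npp-24 on the same strand, so part of its reads may belong to that gene.

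The cyp-35 family, whose cyp-35A members are induced by foreign compounds and affect fat storage, was split. In daf-2 by day 11, cyp-35A4 and cyp-35B1 rose and cyp-35A2, cyp-35A5 and cyp-35D1 fell, and the same genes moved in the same directions in N2. The gene cyp-35A4 had 5.75, 7.56 and 6.65 CPM in day 11 daf-2 worms against 0.637, 0.816 and 1.24 CPM at day 1, a log2 fold change of 2.69 ± 0.41 (edgeR adjusted p = 3.97e-05). In N2 it had 6.22, 9.56 and 4.78 CPM at day 11 against 1.72, 2.12 and 1.22 CPM at day 1, a change of 1.79 ± 0.39 (edgeR adjusted p = 0.00113), and no days overlapped. The gene cyp-35D1, whose enzyme metabolises the drug thiabendazole, fell to 0.662, 0.383 and 0.548 CPM in day 11 daf-2 worms, against 1.98, 1.11 and 3.5 CPM at day 1. In N2 it fell to 1.73, 0.634 and 1.53 CPM at day 11, against 3.97, 2.41 and 6.31 CPM at day 1. The falls were 2.23 in daf-2 (SE 0.43; edgeR adjusted p = 0.000373) and 1.92 in N2 (SE 0.40; edgeR adjusted p = 0.000684), without overlap.

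The gene cyp-35A5 had 1.15, 0.797 and 1.17 CPM in day 11 daf-2 worms against 1.81, 1.83 and 4.55 CPM at day 1, and it fell by 1.58 (SE 0.48; edgeR adjusted p = 0.0133), with an adjusted p of 0.0958 without daf-2 day 1 library 3. N2 worms had 2.07, 0.846 and 2.80 CPM at day 11 against 6.45, 4.56 and 11.6 CPM at day 1, and it fell by 2.20 (SE 0.47; edgeR adjusted p = 0.000852). Neither strain's days overlapped. The gene cyp-29A3, which with cyp-33E2 is known for making eicosanoids, fell by 1.12 in daf-2 (SE 0.31; edgeR adjusted p = 0.00757) and by 1.13 in N2 (SE 0.31; edgeR adjusted p = 0.00682). It had 3.56, 2.77 and 5.68 CPM in day 11 daf-2 worms against 5.97, 6.07 and 10.8 CPM at day 1, and 3.68, 4.02 and 5.51 CPM in day 11 N2 worms against 6.48, 6.14 and 12.1 CPM at day 1. The days did not overlap in either strain. The N2 call had an adjusted p of 0.0553 without N2 day 1 library 3. For cyp-33E2, known from the pharynx, day 11 and day 1 overlapped in both strains, with log2 fold changes of 0.16 ± 0.29 in daf-2 and 0.03 ± 0.30 in N2 that did not pass (edgeR adjusted p = 0.682 and 0.942).

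The 3 cyp-31A genes, which together took 22.6% of all P450 counts, had 0 calls in edgeR over the 10 comparisons of ages and of strains, with 4 at an unadjusted p under 0.05, and 2 calls in DESeq2, with 6 at an unadjusted p under 0.05. The gene cyp-31A2 had 121, 89.1 and 95.1 CPM in day 11 daf-2 worms and 132, 160.1 and 97.6 CPM at day 1 (log2 fold change -0.56 ± 0.27, edgeR adjusted p = 0.101), and 122, 94.9 and 99.7 CPM in day 11 N2 worms and 136, 175 and 93.9 CPM at day 1 (log2 fold change -0.60 ± 0.27, edgeR adjusted p = 0.0785). The days overlapped in both strains. Markers of oocytes and eggshell, 8 genes fixed as a list, had 1 rise and 1 fall in daf-2 and 2 rises and no fall in N2 at day 11. Over all genes, 22.3% rose and 18% fell in daf-2, and 22.5% and 19.2% did so in N2.

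At earlier ages fewer P450 genes had passed. At day 4, 6 rose and 2 fell in daf-2, beside 4.22% and 5.02% of all genes, and 8 rose and 1 fell in N2, beside 3.01% and 6.08%. With the replicate number as a block the daf-2 counts at day 4 were 14 and 4, beside 11% and 11.9% of all genes. With scaling on library size alone they were 7 and 0, beside 806 and 604 of all 16698 genes. At day 7, 21 rose and 5 fell in daf-2, beside 15.1% and 12.7% of all genes, and 18 rose and 6 fell in N2, beside 12.8% and 13.1%. The N2 split at day 7 became 19 rises and 3 falls with upper-quartile scaling, beside 2381 and 1853 of all 16698 genes. With library size alone it became 21 rises and 1 fall, beside 2961 and 1381 of all genes. In the main test all genes had 2143 rises and 2184 falls. Without the libraries numbered 3, 15 rose and 1 fell in daf-2 and 11 rose and 2 fell in N2 at day 4, beside 6.7% and 7.37% of all genes in daf-2 and 7.75% and 10.6% in N2. At day 7 the same setting gave 26 rises and 7 falls in daf-2 and 20 rises and 6 falls in N2, beside 19.7% and 18.5% of all genes in daf-2 and 18.4% and 18.7% in N2. Of the calls in the main test at day 7, it kept 19 of 21 rises and 5 of 5 falls in daf-2. In N2 it kept 16 of 18 rises and 5 of 6 falls. Of the risers at day 4, the 5 that passed in both strains were cyp-14A5, cyp-29A4, cyp-34A2, cyp-35A4 and cyp-36A1. Leaving out library 2 of day 4 gave cyp-35A4 an adjusted p of 0.141 in daf-2 and 0.278 in N2, and leaving out N2 day 1 library 2 gave cyp-36A1 0.168 in N2. The early riser cyp-29A4 had 15.2, 11.5 and 18.2 CPM in day 4 daf-2 worms against 4.12, 3.92 and 7.06 CPM at day 1, a log2 fold change of 1.48 ± 0.36 (edgeR adjusted p = 0.0113, and 0.0555 without daf-2 day 1 library 1). In N2 it had 16.0, 11.8 and 10.9 CPM at day 4 against 1.87, 2.34 and 4.26 CPM at day 1, a change of 2.06 ± 0.37 (edgeR adjusted p = 0.00117), and the days did not overlap in either strain. By day 11 its level in daf-2, at 8.26, 4.11 and 10.8 CPM, overlapped day 1 and no longer passed.

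In N2 the summed level of the cyp-35A genes had its highest mean at day 7, as did cyp-35A1, cyp-35A3 and cyp-35A4, whereas cyp-35A2 averaged 63.3 CPM at day 7 and 65.1 CPM at day 1 and cyp-35A5 averaged 6.33 and 7.54 CPM. The summed level of the 5 cyp-35A genes was 37.8 ± 5.29 CPM in daf-2 and 116 ± 3.84 CPM in N2 at day 7 (SD, n = 3 each). The gene cyp-35A3 had 25.8, 29.7 and 30.3 CPM in day 7 N2 worms against 7.19, 5.93 and 5.51 CPM at day 1, a log2 fold change of 2.01 ± 0.33 (edgeR adjusted p = 0.00013). Its day 11 values in N2 were 12.9, 13.3 and 11.6 CPM, all below those of day 7, and that change from day 1 did not pass.

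The calls at day 11 were mostly shared by the strains. Their age comparisons have no library in common, but both come from 1 fit. Same-numbered libraries of the 2 strains also deviated together, with correlations of 0.24 to 0.63 at day 1 and 0.31 to 0.585 at day 11. The shared part over all genes was not computed, so this overlap cannot be called particular to the P450 genes. Of the risers, 14 passed in both, which is 60.9% of the 23 in daf-2 and 73.7% of the 19 in N2. Of the fallers, 9 passed in both, which is all of the 9 in daf-2 and 69.2% of the 13 in N2. No member was called in opposite directions at any of the 3 ages. Calls in daf-2 alone were made for 9 risers: cyp-13A8, cyp-33B1, cyp-33C1, cyp-33C2, cyp-33C5, cyp-33E1, cyp-34A6, cyp-34A9 and cyp-37B1. Of these 9, cyp-33B1 and cyp-33C2 passed without each of the 6 libraries and the other 7 did not. The genes cyp-33B1 and cyp-33C1 had enough counts to be tested only through daf-2 libraries. The highest adjusted p was 0.0987 for cyp-33C5 and 0.17 for cyp-37B1 without daf-2 day 1 library 1. It was 0.0547 for cyp-13A8, 0.0529 for cyp-33E1 and 0.0692 for cyp-34A9 without daf-2 day 1 library 2, and 0.2 for cyp-33C1 and 0.16 for cyp-34A6 without daf-2 day 11 library 2. Calls in N2 alone were made for 5 risers (cyp-25A4, cyp-29A4, cyp-33C4, cyp-33D3 and cyp-34A7) and 4 fallers (cyp-13A4, cyp-13B2, cyp-14A1 and cyp-25A1). The 4 fallers and cyp-33C4 did not hold without each library: the highest adjusted p was 0.332 for cyp-13A4 and 0.162 for cyp-14A1 without N2 day 1 library 1, 0.0841 for cyp-33C4 without N2 day 1 library 2, 0.119 for cyp-25A1 without N2 day 1 library 3, and 0.0975 for cyp-13B2 without N2 day 11 library 2.

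The test of the difference itself, the change from day 1 to day 11 in daf-2 minus that in N2, called no member in edgeR, beside 0.0838% of all genes higher and 0.264% lower, and 0 in DESeq2. At an unadjusted p under 0.05 there were 8 members in edgeR and 9 in DESeq2. Smallest in p was cyp-33C2, with 1.78, 3.51 and 1.41 CPM in day 11 daf-2 worms against 0.335, 0.228 and 0.159 CPM at day 1, and with 0.251, 0.338 and 0.605 CPM in day 11 N2 worms against 0.3, 0.216 and 0.276 CPM at day 1. In daf-2 the days did not overlap and the log2 fold change was 2.99 ± 0.54 (edgeR adjusted p = 0.000218), while in N2 they did overlap. The difference between the strains in this change was 2.63 ± 0.78, with an edgeR adjusted p of 0.232. With the replicate number as a block, 1 member passed, cyp-25A1, at an edgeR adjusted p of 0.0124, beside 0.371% of all genes higher and 1.19% lower. Same-numbered libraries did not pair throughout for this difference (lowest correlation -0.0584), so the block gives no firm support. Without the libraries numbered 3, cyp-25A1 was again the 1 member that passed (edgeR adjusted p = 0.0426), beside 0.182% and 0.666% of all genes. In the main test its edgeR adjusted p was 0.291, and it passed in no other setting. That gene had 23.7, 31.9 and 31.6 CPM in day 11 daf-2 worms and 14.6, 14.4 and 33.9 CPM at day 1, and 8.59, 7.11 and 13.3 CPM in day 11 N2 worms and 13.3, 12.4 and 35.4 CPM at day 1, the day 1 libraries numbered 3 being well above the others in both strains.

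Between the strains, the genes called lower in daf-2 were cyp-35A2, cyp-35A3, cyp-35A4 and cyp-35C1 of the cyp-35 family, with cyp-13A2 and cyp-37A1. Those called higher were cyp-33B1, cyp-33C2, cyp-33C7 and cyp-33D1 of the cyp-33 family, with cyp-13A11, cyp-25A1 and cyp-35B1. At day 1, 3 members were higher and 4 lower in daf-2 than in N2, beside 1.14% and 0.611% of all genes. At day 4 the counts were 4 and 3, beside 1.56% and 0.371%, at day 7 they were 3 and 4, beside 1.1% and 0.994%, and at day 11 they were 6 and 4, beside 1.71% and 2.24%. The members' share called in either direction was 10%, 10%, 10% and 14.3% at days 1, 4, 7 and 11, beside 1.75%, 1.93%, 2.1% and 3.95% of all genes, a difference that was not tested. The median log2 difference over the members was 0.01 at day 1 and 0.03 at day 11, beside -0.02 and 0.00 over all genes. With the replicate number as a block, 5 members were higher at day 1, 8 at day 4 and 5 at day 7, and 7 were lower at day 7 and 9 at day 11, beside 2.56%, 3.79% and 2.9% of all genes higher at days 1, 4 and 7 and 2.35% and 5.01% lower at days 7 and 11. Without the libraries numbered 3, the counts higher and lower were 3 and 5 at day 1 and 4 and 3 at day 4. At day 7 they were 3 and 5, and at day 11 they were 6 and 5. All genes had 1.44% to 2.8% higher and 0.442% to 3.26% lower. Of the calls in the main test, this kept 2 of 3 higher and 4 of 4 lower at day 1. It kept 2 of 4 and 2 of 3 at day 4, 2 of 3 and 4 of 4 at day 7, and 5 of 6 and 4 of 4 at day 11. With upper-quartile scaling there were 3 higher and 3 lower at day 1, and 4 and 1 at day 4. The same scaling gave 2 and 4 at day 7, and 6 and 2 at day 11. Over all 16698 genes it gave 186 and 81, 273 and 57, 172 and 145, and 282 and 298 at these ages. With library size alone the members had 4 and 3 at day 1, and 4 and 1 at day 4. They had 3 and 4 at day 7, and 7 and 2 at day 11. All genes then had 228 and 78, 292 and 59, 168 and 153, and 298 and 300. In all, 13 members were called at 1 or more ages, 7 of them higher and 6 lower in daf-2. No library was shared between the 4 ages, though all 4 comparisons come from 1 fit.

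The gene cyp-35A3 was lower in daf-2 at all 4 ages. In daf-2 it had 1.17, 0.685 and 2 CPM at day 1, against 7.19, 5.93 and 5.51 CPM in N2, and at day 4 it had 2.27, 2.12 and 3.57 CPM in daf-2, against 8.89, 10.4 and 4.71 CPM in N2. At day 7 it had 2.19, 1.80 and 3.13 CPM in daf-2, against 25.8, 29.7 and 30.3 CPM in N2, and at day 11 it had 1.67, 1.08 and 2.7 CPM in daf-2, against 12.9, 13.3 and 11.6 CPM in N2. The strains did not overlap at any age. The log2 difference was -2.36 ± 0.35 at day 1 (edgeR adjusted p = 0.000358), -1.65 ± 0.33 at day 4 (0.00711), -3.60 ± 0.35 at day 7 (1.35e-06) and -2.86 ± 0.35 at day 11 (1.88e-05). Leaving out each of the 6 libraries in turn kept the calls at days 1, 7 and 11, and at day 4 the adjusted p became 0.0655 without daf-2 day 4 library 2.

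The gene cyp-35C1 was likewise lower in daf-2 at all 4 ages. It had 14.4, 9.06 and 15.2 CPM in day 7 daf-2 worms against 39.6, 51.1 and 72.2 CPM in N2, and 9.73, 7.65 and 13.5 CPM in day 11 daf-2 worms against 24.7, 18.8 and 36.2 CPM in N2. At the younger ages it had 6.37, 4.18 and 18.3 CPM in day 1 daf-2 worms against 26.9, 21.3 and 40.9 CPM in N2, and 12.3, 8.63 and 14.6 CPM in day 4 daf-2 worms against 34.4, 32.8 and 32.9 CPM in N2. Each age was without overlap. The log2 difference was -1.72 ± 0.38 at day 1 (edgeR adjusted p = 0.0169), -1.54 ± 0.38 at day 4 (0.0322), -2.06 ± 0.38 at day 7 (0.00325) and -1.42 ± 0.38 at day 11 (0.034). The day 7 call was kept without each of the 6 libraries. The others were not, with adjusted p-values of up to 0.102 at day 1, 0.213 at day 4 and 0.192 at day 11, in each case without library 2 of daf-2.

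The abundant cyp-35A2 was lower in daf-2 at days 1, 7 and 11. It had 31.8, 25.1 and 30.5 CPM in day 7 daf-2 worms against 70.8, 58.7 and 60.5 CPM in N2, a log2 difference of -1.12 ± 0.22 (edgeR adjusted p = 0.00665) with no overlap. At day 1 it had 31.4, 27.5 and 52.7 CPM in daf-2 against 63.7, 59.6 and 71.9 CPM in N2, and at day 11 it had 26.9, 16.8 and 24 CPM in daf-2 against 42, 41.5 and 36.3 CPM in N2, also without overlap. Those differences of -0.90 ± 0.22 and -0.88 ± 0.22 were less stable, with edgeR adjusted p-values of 0.0368 and 0.0248 that became 0.252 without daf-2 day 1 library 2 and 0.181 without daf-2 day 11 library 2. The gene cyp-35A4 was lower in daf-2 at day 7, with 5.07, 3.37 and 3.62 CPM in daf-2 against 15, 17.3 and 16.0 CPM in N2 (-1.98 ± 0.38, edgeR adjusted p = 0.00501), and by day 11 the strains overlapped, at 5.75, 7.56 and 6.65 CPM in daf-2 and 6.22, 9.56 and 4.78 CPM in N2.

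Outside this family, cyp-13A2 was lower in daf-2 at day 1, by a log2 difference of -1.66 ± 0.31 (edgeR adjusted p = 0.00408), with 5.70, 2.94 and 4.80 CPM in daf-2 against 11.5, 11.5 and 17.5 CPM in N2. At day 4 the difference was -1.26 ± 0.32 (edgeR adjusted p = 0.042, and 0.268 without daf-2 day 4 library 2), and at days 7 and 11 the strains overlapped. The gene cyp-37A1 was lower at day 11, with 15.5, 10.9 and 10.3 CPM in daf-2 against 27.5, 26.5 and 18.9 CPM in N2 (-1.05 ± 0.28, edgeR adjusted p = 0.0383, and 0.178 without daf-2 day 11 library 2). It overlaps a protein-coding gene on the opposite strand.

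**Figure D4:**
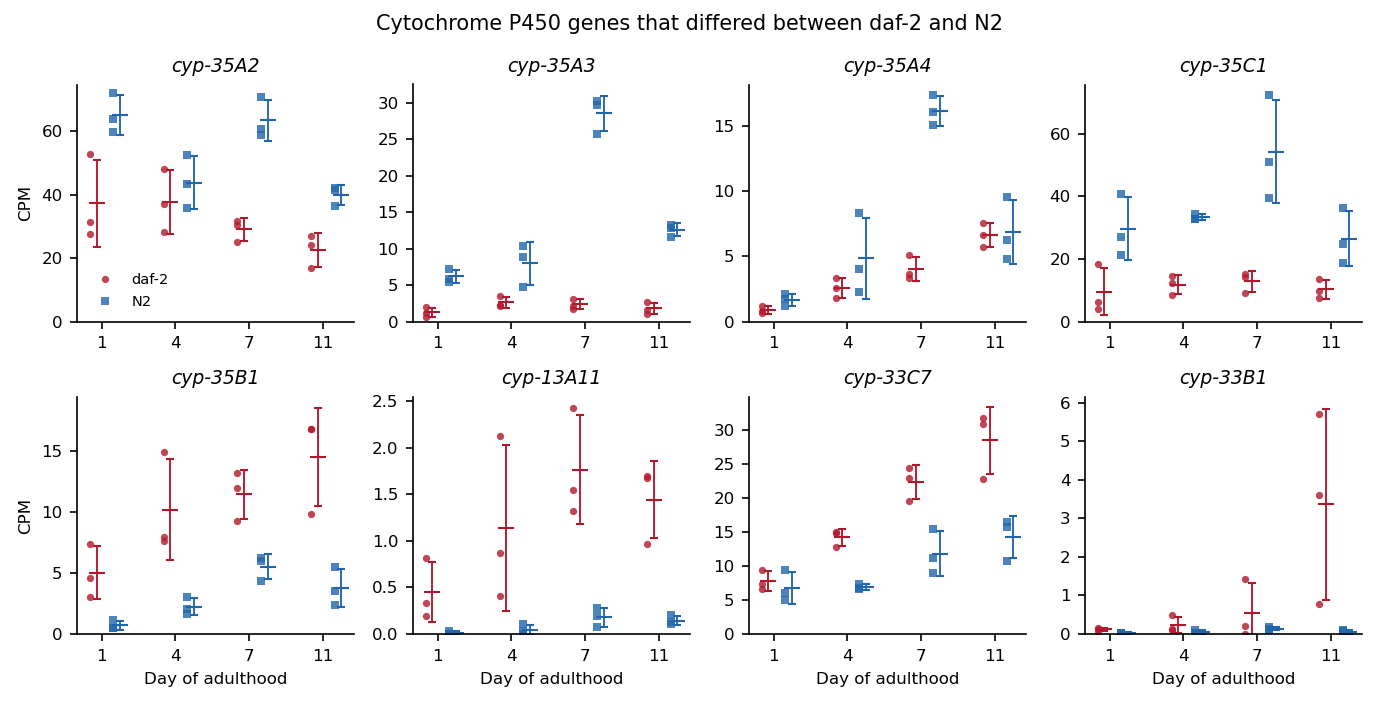
CPM of 8 P450 genes called between the strains, on adult days 1, 4, 7 and 11, with daf-2 in red circles left of N2 in blue squares. Points are libraries, and the dash with its bar is the mean with the SD of 3 libraries; cyp-35A2, cyp-35A3 and cyp-35C1 lie lower in daf-2, cyp-35A4 does so at day 7, and cyp-35B1, cyp-13A11, cyp-33C7 and cyp-33B1 lie higher at 1 or more ages.

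Among the genes higher in daf-2 was cyp-35B1, which is known as a gene turned on by the FOXO factor DAF-16 when insulin signalling is low. It had 3.08, 7.41 and 4.61 CPM in day 1 daf-2 worms, against 0.525, 0.467 and 1.13 CPM in N2, and 7.99, 15 and 7.67 CPM in day 4 daf-2 worms, against 3.01, 1.67 and 2.04 CPM in N2. At day 7 it had 9.25, 12 and 13.2 CPM in daf-2, against 6.27, 4.34 and 5.99 CPM in N2, and at day 11 it had 9.90, 16.9 and 16.9 CPM in daf-2, against 5.5, 2.37 and 3.54 CPM in N2. No age showed an overlap. The log2 difference was 2.73 ± 0.42 at day 1 (edgeR adjusted p = 0.000558), 2.16 ± 0.39 at day 4 (0.00264) and 1.89 ± 0.38 at day 11 (0.00382), and at day 7 a difference of 1.06 did not pass. These 3 calls were kept without each of the 6 libraries. Within each strain the gene also rose with age, by 1.33 ± 0.37 in daf-2 (edgeR adjusted p = 0.00752) and 2.17 ± 0.42 in N2 (edgeR adjusted p = 0.000329) at day 11.

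The gene cyp-13A11 was higher in daf-2 at all 4 ages but at a low level. No N2 library held over 7.33 counts, so cyp-13A11 had enough counts to be tested only through daf-2 libraries. The tests of this gene between the strains are not independent of that. Its 3 libraries held 41 counts in daf-2 and 1 count in N2 at day 1, a ratio of 38.9 with an exact 95% interval of 6.60 to 1572 that covers counting error only. At day 4 it had 0.871, 2.13 and 0.414 CPM in daf-2, against 0, 0.0335 and 0.106 CPM in N2, and at day 11 it had 1.67, 1.69 and 0.963 CPM in daf-2, against 0.106, 0.127 and 0.203 CPM in N2, with no overlap. The log2 difference at day 11 was 3.30 ± 0.72 (edgeR adjusted p = 0.00732), and the reads it shares with a similar sequence leave its level uncertain. The call at day 1 was lost without daf-2 day 1 library 2, at an adjusted p of 0.136, and that at day 7 without N2 day 7 library 3, at 0.0707. The gene cyp-33C7 was higher in daf-2 at days 4, 7 and 11. It had 22.9, 31.9 and 31 CPM in day 11 daf-2 worms against 10.8, 16.5 and 15.7 CPM in N2, a log2 difference of 0.94 ± 0.22 (edgeR adjusted p = 0.0159, and 0.0941 without daf-2 day 11 library 2). At day 4 it had 12.8, 14.9 and 15.1 CPM in daf-2 against 7.38, 6.61 and 6.72 CPM in N2, and at neither age did the strains overlap. That day 4 difference of 1.01 ± 0.23 had an edgeR adjusted p of 0.0179, and of 0.0883 without daf-2 day 4 library 2. The day 7 difference of 0.95 ± 0.22 had an edgeR adjusted p of 0.0235, and of 0.183 without N2 day 7 library 1.

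Other genes were called higher at fewer ages. The gene cyp-33D1 had 1.64, 2.28 and 2.13 CPM in day 1 daf-2 worms against 0.600, 0.287 and 0.551 CPM in N2 (log2 difference 1.98 ± 0.37, edgeR adjusted p = 0.00384, no overlap). The gene cyp-33B1 was close to absent in most groups and had 0.767, 3.60 and 5.72 CPM in day 11 daf-2 worms, against 0, 0.0846 and 0.0956 CPM in N2. Those libraries held 281 counts in daf-2 and 5 in N2, the log2 difference was 5.69 ± 1.10 (edgeR adjusted p = 0.00277), and the call was kept without each of the 6 libraries. No N2 library at any age held over 5 counts, so cyp-33B1 had enough counts to be tested only through daf-2 libraries. Its test and the left-out libraries are therefore no independent support for the difference. The gene cyp-33C2 was higher in daf-2 at day 11 by 2.42 ± 0.52 (edgeR adjusted p = 0.0066, and 0.0757 without daf-2 day 11 library 2) and at day 7 by 2.35 ± 0.56 (edgeR adjusted p = 0.0264, and 0.166 without N2 day 7 library 2). The gene cyp-25A1 was higher at day 11 by 1.54 ± 0.37 (edgeR adjusted p = 0.0186, and 0.113 without N2 day 11 library 2).

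Many P450 genes sit in runs, and 35 of the 74 lie in 6 clusters of 3 or more genes with gaps under 15000 bases (WBcel235). The largest, on chromosome V at 3936326 to 3972991, holds 10 genes of the cyp-34A, cyp-35A and cyp-35B subfamilies, of which 4 rose and 2 fell by day 11 in daf-2, and 3 rose and 2 fell in N2. Its gene cyp-35B3 was not tested. Genes of this cluster went opposite ways: cyp-35B1 and cyp-34A5 rose in both strains while cyp-35A5 and cyp-34A8 fell. On chromosome III at 3832591 to 3852080, the 4 genes cyp-25A1 to cyp-25A4 had no call in daf-2 at day 11 and 1 rise and 1 fall in N2. In a cluster on chromosome V at 2179514 to 2204400, 3 of 4 genes rose in daf-2 and 1 rose in N2, and in its neighbour at 2236140 to 2252591, 2 of 5 rose in each strain. In the former, cyp-33C12 was not tested, and the call for cyp-33C1 did not hold without each library, as given above. Over all genes tested, 22.3% rose and 18% fell by day 11 in daf-2, and 22.5% and 19.2% did so in N2.

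The cluster on chromosome X at 13265041 to 13284197, which holds cyp-14A1 to cyp-14A4, differed by library number. The genes cyp-14A1, cyp-14A2 and cyp-14A3 were lowest in library 2 of all 8 groups. For cyp-14A3 the libraries numbered 2 had 0.287 to 1.44 CPM, those numbered 1 had 6.78 to 16.7 CPM and those numbered 3 had 3.05 to 10.1 CPM, so the numbers did not overlap between library 2 and the others. For cyp-14A2 the libraries numbered 2 had 0.124 to 0.755 CPM and those numbered 1 had 0.377 to 9.15 CPM. In this setting cyp-14A2 passed as a faller at day 11 in both strains, by 2.99 in daf-2 (SE 1.13; edgeR adjusted p = 0.0393) and by 3.41 in N2 (SE 1.14; edgeR adjusted p = 0.0206), although the days overlapped. With the replicate number as a block the adjusted p was 0.000352 in daf-2 and 4.05e-05 in N2, and without daf-2 day 1 library 1 it was 0.295 in daf-2 and without N2 day 11 library 2 it was 0.0779 in N2. What the numbers stand for is not given in the labels.

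**Figure D5:**
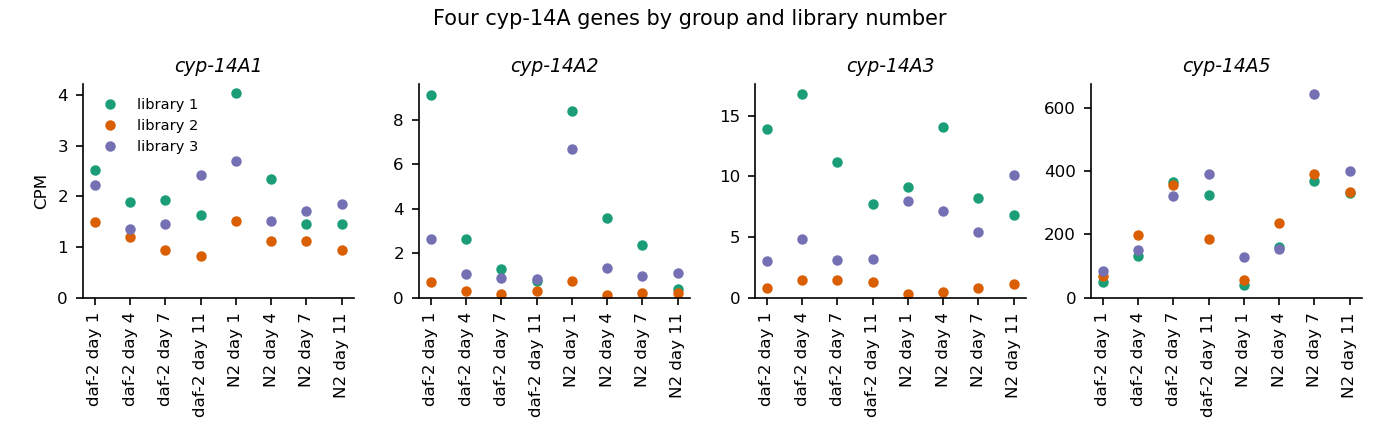
CPM of cyp-14A1, cyp-14A2, cyp-14A3 and cyp-14A5 in the 8 groups, daf-2 left of N2, with the 3 libraries of a group coloured by their number. Library 2 is the lowest in all 8 groups for cyp-14A1, cyp-14A2 and cyp-14A3, and in 1 of 8 groups for cyp-14A5.

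Genes that work with P450 enzymes were read from lists. By day 11, 22.3% of all genes tested rose and 18% fell in daf-2, and 22.5% and 19.2% did so in N2. Of 11 tested genes of electron transfer, steroid hormone and sterol handling, daf-12 and din-1 among them, 5 rose and 1 fell in daf-2. In N2 also 5 rose and 1 fell by day 11. The reductase gene emb-8 did not pass, with log2 fold changes of 0.32 ± 0.28 in daf-2 and 0.55 ± 0.28 in N2 (edgeR adjusted p = 0.376 and 0.113). Nor did daf-9, the P450 gene of dafachronic acid synthesis whose symbol does not start with cyp-, at -0.81 ± 0.37 in daf-2 and -0.86 ± 0.37 in N2 (edgeR adjusted p = 0.085 and 0.0696). The oxygenase gene daf-36, which acts earlier in that synthesis, fell by 3.15 in daf-2 (SE 0.39; edgeR adjusted p = 3.53e-06) and by 2.01 in N2 (SE 0.37; edgeR adjusted p = 0.000206). The risers in both strains were dhs-16, strm-1, din-1, ncr-1 and ncr-2.

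Of 7 tested genes of heme uptake and transport, 1 rose and 4 fell by day 11 in daf-2, and 1 rose and 3 fell in N2. Over all genes, 22.3% rose and 18% fell in daf-2, and 22.5% and 19.2% did so in N2. The intestinal heme importer gene hrg-4 fell by 2.98 in daf-2 (SE 0.57; edgeR adjusted p = 0.000367) and by 2.80 in N2 (SE 0.58; edgeR adjusted p = 0.000611), and the heme exporter gene mrp-5 rose by 0.70 ± 0.18 in daf-2 (edgeR adjusted p = 0.00443) and 1.02 ± 0.18 in N2 (edgeR adjusted p = 0.000156). Of 18 regulators of xenobiotic and fat responses, 2 rose and 1 fell in daf-2 and 5 rose in N2, beside the same shares of all genes. The aryl hydrocarbon receptor gene ahr-1 rose by 2.76 ± 0.55 in daf-2 (edgeR adjusted p = 0.000482) and 2.96 ± 0.53 in N2 (edgeR adjusted p = 0.000174). The nuclear receptor gene nhr-176, needed for the induction of cyp-35D1 by thiabendazole, fell by 0.80 in daf-2 (SE 0.20; edgeR adjusted p = 0.00373) and had -0.38 ± 0.20 in N2 (edgeR adjusted p = 0.134). Between the strains, the sterol transport gene ncr-2 was higher in daf-2 at day 11, by 0.85 ± 0.22 (edgeR adjusted p = 0.0291), and hrg-7 at day 1, by 1.34 ± 0.34 (edgeR adjusted p = 0.0435).

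Markers of intestine, where many cyp genes are expressed, moved with age. Of 12, none rose and 8 fell by day 11 in daf-2 (median log2 fold change -1.89), and 1 rose and 9 fell in N2 (median -1.45), while elt-2, the gene of the main intestinal transcription factor, had -0.09 ± 0.19 in daf-2 and -0.11 ± 0.19 in N2. Between the strains, 1 of the 12 was lower in daf-2 at day 1, 1 was higher at day 4, 4 were lower at day 7 (median log2 difference -0.64), and 1 was higher and 3 were lower at day 11 (median -0.58). Of 7 hypodermis markers 3 fell in daf-2 and 3 in N2, and of 6 body wall muscle markers 4 fell in daf-2 and 4 in N2. Of 7 germline markers 3 fell in daf-2 and 5 in N2. Of 7 sperm markers 3 rose in daf-2 (median log2 fold change 1.33) and 2 rose in N2, where the median was -0.61. At day 4, 5 of them fell in daf-2 and 6 in N2, and at day 7, 4 and 5 fell. Their summed level at day 1 was only 5.65 to 28.8 CPM in daf-2 and 4.75 to 26.7 CPM in N2. Of 5 neuron markers 1 rose in daf-2 and 2 in N2, and of 2 excretory markers 2 fell in daf-2 and 1 in N2. The part of these cell types in the P450 changes was not tested. Over all genes, 22.3% rose and 18% fell by day 11 in daf-2, and 22.5% and 19.2% in N2. At days 4 and 7, 5.02% and 12.7% fell in daf-2, and 6.08% and 13.1% in N2. Between the strains, 0.611%, 0.371%, 0.994% and 2.24% of all genes were lower in daf-2 at days 1, 4, 7 and 11. Those higher in daf-2 were 1.14%, 1.56%, 1.1% and 1.71%.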

How the data were processed

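Whole-body total RNA was sequenced after ribosomal RNA depletion with a stranded kit, per the labels' protocols. The values used are expected counts per gene, which the authors deposited for each library. RSEM 1.3.1 and STAR 2.7.0e appear in the submitters' processing notes, as do ce11 and WBcel235 as builds, and the strand setting of the counting is not given in the sources used here. Identifiers were matched to the WBcel235 annotation of Ensembl release 115, which held 46817 of the 46904. Expected counts were rounded to whole numbers for the tests. CPM divide the expected count by the library's total.

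Genes were filtered with filterByExpr over the 8 groups, scaled by TMM and tested in R 4.3.3 with edgeR 4.0.16 (glmQLFit and glmQLFTest, limma 3.58.1), in 1 fit of all 24 libraries, Benjamini-Hochberg threshold 0.05. Tables and plots used Python 3.11.15, numpy 2.4.6, pandas 2.3.3 and matplotlib 3.10.9. Alternatives were DESeq2 1.42.0, 3 other scalings, 2 other filters, the compared groups alone, the replicate number as a block, and each library or number left out. Same-numbered libraries deviated together, with every pair's correlation over 0.1, for N2 day 11 and for all daf-2 age and all strain comparisons (lowest 0.131, highest 0.635). Such a block is therefore printed beside those results where it moves a count by over 1.5 times. For the strain-by-age difference, where the pairing did not hold throughout, it is printed with that limit.

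The genes given full statistics were picked from a set made by a rule. In the main comparisons it held up to 6 passing members with the largest rise and 6 with the largest fall. It held up to 3 of each in the others, all at a mean of at least 1 CPM, and 15 listed members. Not all genes of the set are given with full statistics, and cyp-42A1 is not described. Others were named because of their counts, calls or position. The members and gene lists were chosen with earlier results of these data known. Sequences are not used here.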

Additional observations from a re-analysis of the deposited data

How the results depend on the processing

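Counts are members higher and lower in the first-named group. The replicate block gave 14 rises and 4 falls at daf-2 day 4, 15 falls at daf-2 day 11, 7 falls at N2 day 4, and, for daf-2 over N2, 5 higher at day 1, 8 higher at day 4, 5 higher and 7 lower at day 7 and 9 lower at day 11. For the strain-by-age difference it gave 1 member. The numbers of N2 day 4, N2 day 7 and the strain-by-age difference did not pair the libraries throughout (lowest correlations 0.0852, 0.0964 and -0.0584). Testing the compared groups alone gave 0 falls at daf-2 day 4, 2 falls at daf-2 day 7, 4 rises at N2 day 4, 1 fall at N2 day 7, and, between the strains, 1 higher and 0 lower at day 1, 1 lower at day 4 and 1 higher at day 7. Library size alone gave 0 falls at daf-2 day 4, 1 at N2 day 7, and 1 and 2 lower between the strains at days 4 and 11, and upper-quartile scaling gave 3 falls at N2 day 7 and the same 1 and 2. No filter gave 1 fall at daf-2 day 4, 13 rises at daf-2 day 7, 4 rises at N2 day 4, 3 falls at N2 day 7, 2 higher between the strains at day 4 and 2 lower at day 11. DESeq2 gave 3 falls at N2 day 4, and a filter of 1 CPM in 3 libraries gave 2. Counts over all genes moved with these settings too. At daf-2 day 4 the main test called 704 rises and 839 falls of 16698 genes, and the block 1837 and 1980. Library size alone gave 806 and 604, no filter 457 and 783 of 23213, and the compared groups alone 264 and 382 of 14586. Shares over all genes are not printed for every setting. The cause of these shifts was not tested.

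Leaving out 1 library, or 1 replicate number from every group, gave 0 to 15 rises and 0 to 2 falls at daf-2 day 4, 4 to 26 and 2 to 7 at daf-2 day 7, and 10 to 21 and 6 to 13 at daf-2 day 11. For N2 the ranges were 0 to 11 and 0 to 2 at day 4, 9 to 20 and 1 to 6 at day 7, and 10 to 25 and 7 to 16 at day 11. Between the strains they were 0 to 3 higher and 0 to 5 lower at day 1, 0 to 4 and 0 to 3 at day 4, 0 to 3 and 1 to 5 at day 7, and 0 to 7 and 1 to 5 at day 11, and 0 to 1 and 0 to 0 for the strain-by-age difference. Counts over all genes moved as well. At daf-2 day 4 there were 65 rises and 166 falls without number 1, and 1106 and 1217 without number 3. At N2 day 11 there were 1736 rises and 1657 falls over all genes without number 1, and 4604 and 4364 without number 3. The members' ranges alone are therefore not a result about the members. Of the named genes' alternatives, none reversed a called direction. No value depends on coverage of a single site, and the SE of a log2 change had a median of 0.70 over the 18 tested members under 1 CPM and 0.33 over the other 52, with overlapping ranges.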

Other observations

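In the libraries numbered 2 the low levels of cyp-14A1, cyp-14A2 and cyp-14A3 were not seen in the other genes of the subfamily, since cyp-14A5 was lowest in library 2 in 1 of 8 groups and cyp-14A4 in 1 of 8 groups. Among the cyp-34A genes, cyp-34A10 was lowest in library 2 in 7 of 8 groups, the exception being daf-2 at day 7, where library 3 had 2.19 CPM. It had 0.196, 0.307, 3.23 and 2.11 CPM in the daf-2 libraries numbered 2 at days 1, 4, 7 and 11, against 5.46, 2.61, 6.73 and 3.94 CPM in those numbered 1. In N2 the libraries numbered 2 had 0.216, 0.217, 0.575 and 0.634 CPM, against 5.77, 4.63, 3.97 and 2.14 CPM in those numbered 1.

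The gene cyp-37B1 was near absent in 1 library: at day 1, daf-2 had 1.68, 5.03 and 5.91 CPM, and N2 had 0.150, 4.85 and 8.27 CPM. Library 1 was the lowest of its group in both strains at that age.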
